A study of Mus musculus with 12 samples.

Results

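The genes described here set the pace of G1, the stretch of the cell cycle before DNA replication. They are the D-type cyclins Ccnd1, Ccnd2 and Ccnd3, their catalytic partners Cdk4 and Cdk6, the CIP/KIP inhibitors Cdkn1a (p21) and Cdkn1b (p27), and the INK4 inhibitors Cdkn2c (p18) and Cdkn2d (p19). They were taken by name from a table of 54532 entries, and all 9 were found once. RNA was sequenced from 12 libraries of freshly isolated, untreated mouse CD4 T cells, 3 for each of 4 sorted subsets from mixed spleen and lymph node. All cells were polyclonal and came from wildtype C57BL/6 animals with a Foxp3-GFP reporter, for which no number or age is given in the sources used here. Anergic cells, which have met antigen and respond poorly to it, were sorted as CD44high cells without FOXP3, with NRP1 and with high levels of FR4 and CD73. Treg cells, the regulatory subset, were positive for both FOXP3 and CD25. Teff cells, the effector subset, were CD44high cells without FOXP3 and with low CD73 and FR4. Naive cells, which have not met antigen, were CD44low.

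D-type cyclins bind CDK4 or CDK6, and the active pair phosphorylates the retinoblastoma protein family, which releases E2F factors and lets a cell enter S phase. INK4 proteins bind CDK4 and CDK6 and keep the cyclin away, whereas p21 and p27 bind cyclin and kinase together and block the kinases that act later in G1. In T cells, signals from the antigen receptor, CD28 and interleukin 2 raise D-type cyclins and remove p27, and p27 has been studied as a factor in T cell unresponsiveness.

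The kinase genes are shown first by the sequence upstream of 1 start of each. They come first because both kinases serve the same cyclins and their transcript levels differed in how they varied between the subsets. The stretches below are RefSeq promoter sequence of GRCm38.p6, plus strand, cut so as to leave out annotated exons. The Cdk6 stretch lies inside the annotated span of that gene, which begins at chr5:3341485, so the start used is not the first one annotated. Another exon-free stretch of the Cdk6 window, chr5:3343789-3343892, lies nearer that start, held no CACGTG and is not printed. Capitals mark CACGTG, the E-box bound by MYC and related factors.
Cdk4, chr10:127063285-127063533: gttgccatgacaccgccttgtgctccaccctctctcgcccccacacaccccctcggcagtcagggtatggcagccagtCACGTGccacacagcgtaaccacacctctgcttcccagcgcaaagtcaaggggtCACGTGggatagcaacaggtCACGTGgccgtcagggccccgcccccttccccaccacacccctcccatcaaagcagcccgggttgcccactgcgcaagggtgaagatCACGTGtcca
Cdk6, chr5:3343643-3343731: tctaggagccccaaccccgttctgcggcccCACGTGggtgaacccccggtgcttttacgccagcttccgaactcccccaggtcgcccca

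Cdk4 held 4 E-boxes, the nearest 11 bases before the start, and 0.0244% of the 32851 mouse promoter windows of the same 300 bases held as many. Cdk6 held 1, placed 220 bases before the start used, and 7.15% of windows held at least 1. Windows were given for 7 of the 9 genes, which are all but Ccnd1 and Ccnd2. The other letters searched on both strands were the E2F sites TTTCGCGC, TTTGGCGC and TTTCCCGC, the FOXO site TGTTTAC, the AP-1 site TGANTCA and the GC box GGGCGG. GC boxes lay in at least 1 window of Ccnd3, Cdk4, Cdkn1a, Cdkn1b, Cdkn2c and Cdkn2d, and 35.7% of all windows held one. The window of Cdkn2d held 5 GC boxes, as many as 2.71% of windows. A FOXO site lay in 1 of the windows of Ccnd3 (3.65% of all windows), and an E-box lay 34 bases after a second start of Cdkn2c. None of the E2F or AP-1 letters was found in these windows, and 0.323% to 1.07% of all windows held one of the E2F sites and 7.81% the AP-1 site. A match is a description of the letters only.

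The libraries held 6909035 to 9527897 counts. The abundant entries Gm23935, mt-Rnr1, mt-Rnr2, Gm42418, Gm26917 and Rn7sk together took 27.7% to 39.0% of a library's counts, most in Anergic replicate 3. Levels are given as CPM (counts scaled to a common library size) after scaling by the trimmed mean of M values (TMM). The sorting genes followed the gates: Nt5e (CD73), Izumo1r (FR4) and Nrp1 were highest in Anergic cells, at 256, 424 and 333 CPM, and Foxp3 was 543 CPM in Treg cells. Foxp3 was also 18.2 CPM in Anergic cells, against 0.734 CPM in Teff cells and 1.36 CPM in Naive cells. Genes were tested with the quasi-likelihood test of edgeR over 13393 genes, and called at a Benjamini-Hochberg adjusted p under 0.05. Nothing in the labels ties replicates to different animals, and p-values here cover the spread between these libraries alone, which may be technical.

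Marker genes of other cell states moved with the subsets. All 8 follicular helper markers, among them Cxcr5, Bcl6, Pdcd1 and Il21, were higher in Anergic cells than in each other subset. Of all tested genes, 31.0% were called in either direction against Treg, 26.6% against Teff and 46.2% against Naive cells. The summed level of the 8 markers was 588 to 696 CPM in Anergic, 169.9 to 187 CPM in Treg, 192 to 209 CPM in Teff and 53.5 to 56.4 CPM in Naive libraries. None of these markers was at 0 in any subset. The 7 NK and innate-like markers summed to 50.6 to 54.3 CPM in Anergic, 5.88 to 8.36 CPM in Treg, 229 to 290.4 CPM in Teff and 8.69 to 11.0 CPM in Naive libraries. Of the 6 tested, 5 were lower in Anergic than in Teff cells and 6 lower in Treg than in Teff cells. Of all tested genes, 26.6% and 29.1% were called in either direction in these comparisons. Klrk1, held in both counts, had 284 to 418 counts in Teff libraries and at most 5 in any other. It passed the filter on low counts through the Teff libraries alone. Ncr1, the defining NK receptor gene, had 0 counts in all Anergic and Treg libraries and at most 1 count in any Teff or Naive library. Of genes typical of B cells, Ighm averaged 209 CPM in Anergic, 443 CPM in Treg, 174 CPM in Teff and 214 CPM in Naive cells, while Cd22 averaged 27.9 CPM in Anergic, 2.87 CPM in Treg, 12.6 CPM in Teff and 0.101 CPM in Naive cells. Cd79b averaged 1.88, 5.97, 0.739 and 0.639 CPM in Anergic, Treg, Teff and Naive cells, and Ms4a1 had at most 8 and Cd79a at most 14 counts in any library. Myeloid markers summed to at most 10.8 CPM and erythroid markers to at most 0.911 CPM in any library. The T cell gene Cd3e averaged 603, 445, 434 and 445 CPM in Anergic, Treg, Teff and Naive cells, and Cd4 averaged 1222, 467, 653 and 676 CPM. The part of these markers in the results below was not tested. In RNA from sorted pools, fewer cells that express a gene and less of its RNA per cell cannot be told apart.

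The D-type cyclins came mainly from Ccnd2 and Ccnd3, and both were lowest in Anergic cells. Ccnd2 (cyclin D2, chr6:127125162-127152193, minus strand, GRCm38) had 331, 348 and 356 CPM in the Anergic libraries, 432, 454 and 437 CPM in Treg, 458, 477 and 429.9 CPM in Teff and 399.7, 441 and 405 CPM in Naive libraries. Each Anergic library lay below each library of the other subsets, and the other 3 subsets overlapped each other. Ccnd2 was 1.28-fold lower in Anergic cells than in Treg (log2 fold change -0.35 ± 0.06 SE), 1.32-fold lower than in Teff (-0.40 ± 0.06) and 1.20-fold lower than in Naive cells (-0.27 ± 0.06). The adjusted p by edgeR was 9.83e-05, 2.68e-05 and 0.00118 for these comparisons, and all 3 calls stood in each of 15 other settings. The order was Teff, Treg, Naive, Anergic, and the steps between Teff and Treg (adjusted p = 0.649, edgeR) and between Treg and Naive (0.332) did not pass.

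Ccnd3 (cyclin D3, chr17:47505051-47599691, plus strand), the D-type cyclin known for its need in thymocyte expansion, had 112, 105 and 95.7 CPM in Anergic, 116, 126 and 115 CPM in Treg, 171, 169 and 160.3 CPM in Teff and 148, 149 and 138 CPM in Naive libraries. No subset overlapped any other, in the order Teff, Naive, Treg, Anergic. Ccnd3 was 1.60-fold lower in Anergic than in Teff cells (log2 -0.68 ± 0.07 SE, adjusted p = 2.76e-08, edgeR) and 1.39-fold lower than in Naive cells (-0.48 ± 0.07, adjusted p = 3.29e-06). It was 1.40-fold lower in Treg than in Teff cells (-0.49 ± 0.07, adjusted p = 3.25e-06, edgeR) and 1.22-fold lower in Treg than in Naive cells (-0.28 ± 0.07, adjusted p = 0.00195). The smaller steps were less firm. Anergic cells were 1.14-fold lower than Treg (-0.19 ± 0.07, adjusted p = 0.0336, edgeR), a call that stood in 8 of 15 other settings and was lost without Anergic replicate 2 or 3 and without any 1 of the Treg replicates, at adjusted p between 0.0551 and 0.187, and with DESeq2 (0.0556). Teff cells were 1.15-fold higher than Naive (0.20 ± 0.07, adjusted p = 0.0207, edgeR), which was lost without Teff replicate 1 (0.0510), Teff replicate 2 (0.0553) or Naive replicate 3 (0.0912). Bysl, an opposite-strand gene that shares 4.11% of the exon length of Ccnd3, had 14.8, 22.9, 27.2 and 32.0 CPM on average in Anergic, Treg, Teff and Naive cells, and the sources used here do not give the strand setting of the counting.

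Ccnd1 (cyclin D1, chr7:144929931-144939925, minus strand), the cyclin typical of adherent cells, had 1 to 8 counts in any library. It had 6, 3 and 2 counts in the Anergic libraries, 8, 4 and 5 in Treg, 1, 4 and 6 in Teff and 1, 4 and 1 in Naive libraries. It did not pass the filter on low counts and was not tested, and 23.4% of its exon length is shared with an opposite-strand gene. Its Treg libraries, at 0.507 to 0.808 CPM, lay above its Naive libraries, at 0.138 to 0.496 CPM, and the other pairs of subsets overlapped. With all levels per kilobase of exon, the D-type cyclins together reached 48.6 ± 0.52 CPM per kb in Anergic, 60.6 ± 1.89 in Treg, 67.5 ± 3.05 in Teff and 60.7 ± 2.83 in Naive (mean and SD, n = 3 each). The 3 Anergic libraries, at 48.0 to 49.0 CPM per kb, were all below the lowest other library, at 58.8. Ccnd2 made up 75.4% ± 2.18 of the sum in Anergic, 77.4% ± 0.40 in Treg, 71.7% ± 0.58 in Teff and 72.7% ± 0.94 in Naive.

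**Figure D1:**
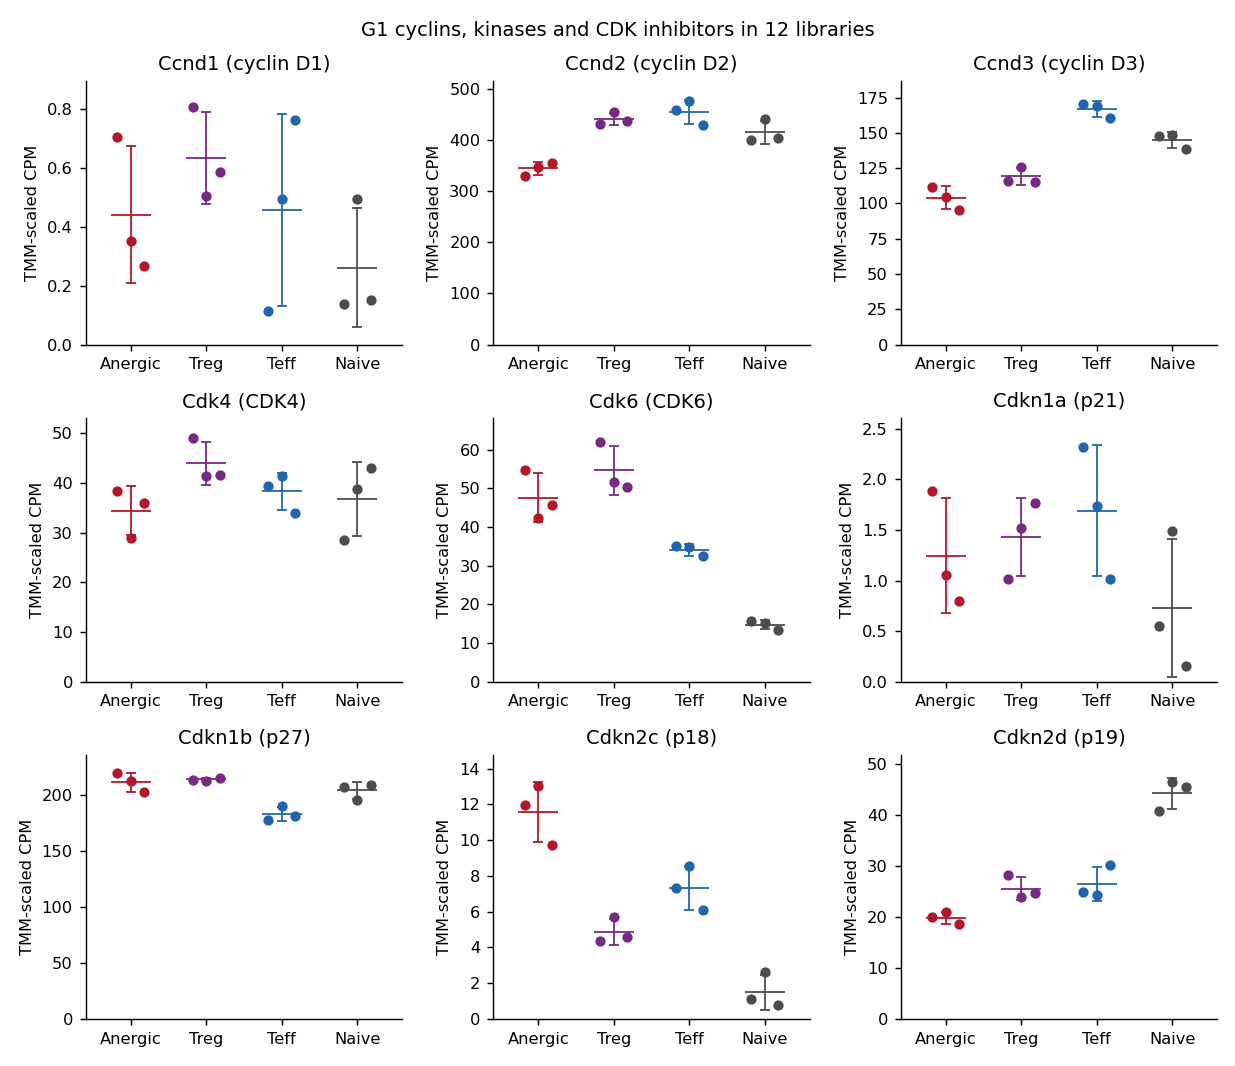
Level of each of the 9 genes in TMM-scaled CPM (vertical axes, from 0) in the 3 libraries of each subset (points), with the mean and SD (bars). Ccnd2 and Ccnd3 were lowest in Anergic cells, Cdk6 and Cdkn2c lowest in Naive cells, and Cdkn2d highest in Naive cells, at 40.7 to 46.5 CPM.

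The kinases parted: Cdk6 was higher in each antigen-experienced subset than in Naive cells, while Cdk4 passed the test in 1 of 6 comparisons. Cdk6 (chr5:3341485-3531008, plus strand) had 54.8, 42.4 and 45.7 CPM in Anergic, 61.8, 51.7 and 50.3 CPM in Treg, 35.0, 35.0 and 32.4 CPM in Teff and 15.6, 15.2 and 13.4 CPM in Naive libraries. Anergic and Treg libraries overlapped, Teff lay below both, and Naive lay below all. Against Naive cells it was 3.22-fold higher in Anergic (log2 1.69 ± 0.12 SE), 3.70-fold higher in Treg (1.89 ± 0.11) and 2.31-fold higher in Teff cells (1.21 ± 0.12), with adjusted p of 1.55e-11, 2.34e-12 and 1.73e-08 by edgeR. Against Teff cells it was 1.40-fold higher in Anergic (0.48 ± 0.10, adjusted p = 8.06e-04, edgeR) and 1.60-fold higher in Treg cells (0.68 ± 0.10, adjusted p = 8.00e-06). These 5 calls stood in all 15 other settings. Anergic and Treg cells did not differ by the test (-0.20 ± 0.10, adjusted p = 0.125, edgeR), but without Anergic replicate 1 the adjusted p was 0.0181.

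Cdk4 (chr10:127063534-127067920, plus strand) had 38.5, 28.9 and 35.9 CPM in Anergic, 49.0, 41.3 and 41.6 CPM in Treg, 39.4, 41.4 and 34.0 CPM in Teff and 28.5, 38.8 and 43.1 CPM in Naive libraries. Only Anergic and Treg libraries did not overlap. Its order was Treg, Teff, Naive, Anergic, and no step between neighbours passed. Anergic cells were 1.28-fold lower than Treg (log2 -0.36 ± 0.12 SE, adjusted p = 0.0292, edgeR), a call lost without Anergic replicate 2 (0.182) or Treg replicate 1 (0.173). Treg cells were 1.20-fold higher than Naive (0.26 ± 0.12, adjusted p = 0.113, edgeR), which passed without Naive replicate 3 (0.0377). Tspan31, an opposite-strand gene, shares 19.7% of the exon length of Cdk4, and averaged 23.4, 13.1, 17.8 and 5.99 CPM in Anergic, Treg, Teff and Naive cells. Reads from the shared stretch cannot be told apart without strand.

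Per kilobase of exon, Cdk6 made up 24.4% ± 1.39 of Cdk4 and Cdk6 together in Anergic, 22.4% ± 0.39 in Treg, 17.2% ± 0.85 in Teff and 8.78% ± 2.30 in Naive (mean and SD, n = 3 each). The subsets stood in that order with 22.8% to 25.4% in Anergic libraries, 21.9% to 22.7% in Treg, 16.4% to 18.1% in Teff and 6.71% to 11.3% in Naive libraries. With the length of the longest transcript in place of all exons, the shares were 19.8%, 18.1%, 13.7% and 6.88%, in the same order. Cdk4 was thus the larger transcript per kilobase in each subset.

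Of the CIP/KIP inhibitors, Cdkn1b was abundant and differed little in size between the subsets, lowest in Teff cells, while Cdkn1a had few counts and passed no test. Cdkn1b (p27, chr6:134920401-134925513, plus strand), the main brake on cyclin E and CDK2 in resting T cells, had 219.6, 213 and 203 CPM in Anergic, 214, 213 and 216 CPM in Treg, 178, 190.0 and 182 CPM in Teff and 207.5, 196 and 209 CPM in Naive libraries. The Teff libraries lay below all others, and the highest subset mean was 1.17 times the lowest. Anergic cells were 1.16-fold higher than Teff (log2 0.21 ± 0.06 SE, adjusted p = 0.0110, edgeR) and Treg cells 1.17-fold higher than Teff (0.23 ± 0.06, adjusted p = 0.00564). The first call was lost without Anergic replicate 1 (0.0502) and with scaling by total counts (0.306), and the second stood in all 15 other settings. Teff cells were 1.11-fold lower than Naive (-0.16 ± 0.06, adjusted p = 0.0477, edgeR), and this call stood in 7 of 15 other settings. It was lost without Teff replicate 1 or 3 and without Naive replicate 1 or 3, at adjusted p between 0.115 and 0.165. Anergic and Naive cells did not differ by the test (0.05 ± 0.06, adjusted p = 0.503, edgeR), nor did Anergic and Treg cells (-0.02 ± 0.06, adjusted p = 0.876).

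Cdkn1a (p21, chr17:29090976-29100727, plus strand), a textbook target of p53, had 16, 9 and 6 counts in Anergic, 10, 12 and 15 in Treg, 20, 14 and 8 in Teff and 4, 12 and 1 in Naive libraries. All subsets overlapped, the highest subset mean in CPM was 2.32 times the lowest, and it passed in none of the 6 comparisons. Teff cells were 2.20-fold above Naive cells in the fit (log2 1.14 ± 0.55 SE, adjusted p = 0.113, edgeR) and Treg cells 1.84-fold (0.88 ± 0.56, adjusted p = 0.252). Both passed without Naive replicate 2, at 0.0179 for Teff and 0.0421 for Treg. Per kilobase, Cdkn1b made up 98.8% to 99.5% of the pair in the means of the 4 subsets.

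The INK4 inhibitors moved in opposite directions, with Cdkn2c lowest and Cdkn2d highest in Naive cells. Cdkn2c (p18, chr4:109660876-109667189, minus strand), known as a brake on T cell proliferation after receptor stimulation, had 11.998, 13.03 and 9.72 CPM in Anergic, 4.35, 5.70 and 4.59 CPM in Treg, 7.31, 8.55 and 6.12 CPM in Teff and 1.10, 2.60 and 0.759 CPM in Naive libraries. No subset overlapped any other. The counts behind these values were 73 to 111 in Anergic, 39 to 45 in Treg, 48 to 69 in Teff and 5 to 21 in Naive libraries. Against Naive cells it was 7.47-fold higher in Anergic (log2 2.90 ± 0.29 SE), 3.13-fold higher in Treg (1.65 ± 0.32) and 4.72-fold higher in Teff cells (2.24 ± 0.31), with adjusted p of 1.16e-08, 2.49e-04 and 2.41e-06 by edgeR. It was 2.39-fold higher in Anergic than in Treg cells (1.26 ± 0.23, adjusted p = 1.57e-04, edgeR), and these 4 calls stood in all 15 other settings. Anergic cells were 1.58-fold higher than Teff (0.66 ± 0.22, adjusted p = 0.0296, edgeR), a call lost without Anergic replicate 1 (0.0748) or 2 (0.123), without Teff replicate 1 (0.0630) or 3 (0.125), and with scaling by total counts (0.0792). Treg cells did not pass against Teff (-0.59 ± 0.24, adjusted p = 0.0727, edgeR), although each Treg library lay below each Teff library, and they passed when only these 2 subsets were fitted (0.0410). The summed follicular helper markers and Cd22 described above stood in the same order of subsets, and their part in this result was not tested.

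Cdkn2d (p19, chr9:21288410-21291407, minus strand), the INK4 gene expressed in many resting and cycling cells, had 19.996, 20.9 and 18.5 CPM in Anergic, 28.1, 23.8 and 24.7 CPM in Treg, 24.8, 24.2 and 30.2 CPM in Teff and 40.7, 46.5 and 45.4 CPM in Naive libraries. Naive lay above all, Anergic below all, and Treg and Teff overlapped. It was 2.23-fold lower in Anergic (log2 -1.16 ± 0.11 SE), 1.73-fold lower in Treg (-0.79 ± 0.10) and 1.68-fold lower in Teff than in Naive cells (-0.74 ± 0.10), with adjusted p of 2.93e-09, 1.22e-06 and 2.92e-06 by edgeR. Anergic cells were 1.29-fold lower than Treg (-0.37 ± 0.11, adjusted p = 0.0120, edgeR), which was lost without Anergic replicate 3 (0.0535) or Treg replicate 1 (0.0932). They were 1.33-fold lower than Teff (-0.41 ± 0.11, adjusted p = 0.00684, edgeR), which was lost without Teff replicate 3 (0.0654). Neither INK4 gene shares exons with another annotated gene.

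Per kilobase, Cdkn2c made up 25.4% ± 1.69 of the pair in Anergic, 10.1% ± 2.02 in Treg, 14.2% ± 3.32 in Teff and 1.90% ± 1.14 in Naive (mean and SD, n = 3 each). Its share was 23.5% to 26.8% in Anergic libraries, above every other library, and 0.970% to 3.18% in Naive libraries, below every other. Cdkn2d remained the larger of the pair in each library. The INK4 sum was 16.9 ± 1.40 CPM per kb in Anergic, 18.04 ± 1.24 in Treg, 19.5 ± 1.71 in Teff and 28.6 ± 2.16 in Naive.

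Set against their binding partners, the INK4 transcripts were most abundant in Naive cells. The ratio of Cdkn2c plus Cdkn2d to Cdk4 plus Cdk6, per kilobase, was 1.23 ± 0.25 in Anergic, 1.04 ± 0.03 in Treg, 1.39 ± 0.25 in Teff and 2.35 ± 0.30 in Naive (mean and SD, n = 3 each). Naive libraries, at 2.05 to 2.65, lay above all 9 others, which reached at most 1.68. By the longest transcript the means were 0.906 in Anergic, 0.763 in Treg, 1.01 in Teff and 1.67 in Naive, in the same order. Whether the ratio exceeded 1 in Anergic and Treg cells thus depends on the length used. The ratio of Cdkn1b to the summed D-type cyclins was 0.957 ± 0.046 in Anergic, 0.777 ± 0.027 in Treg, 0.597 ± 0.025 in Teff and 0.741 ± 0.059 in Naive. Anergic libraries, at 0.913 to 1.005, lay above all others and Teff libraries, at 0.573 to 0.622, below all others, while Treg and Naive overlapped. With the longest transcript as the length, this ratio was 0.570, 0.467, 0.349 and 0.436, so its size depends on the length used and its order does not. No test was run on these ratios, which describe transcripts and not proteins.

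**Figure D2:**
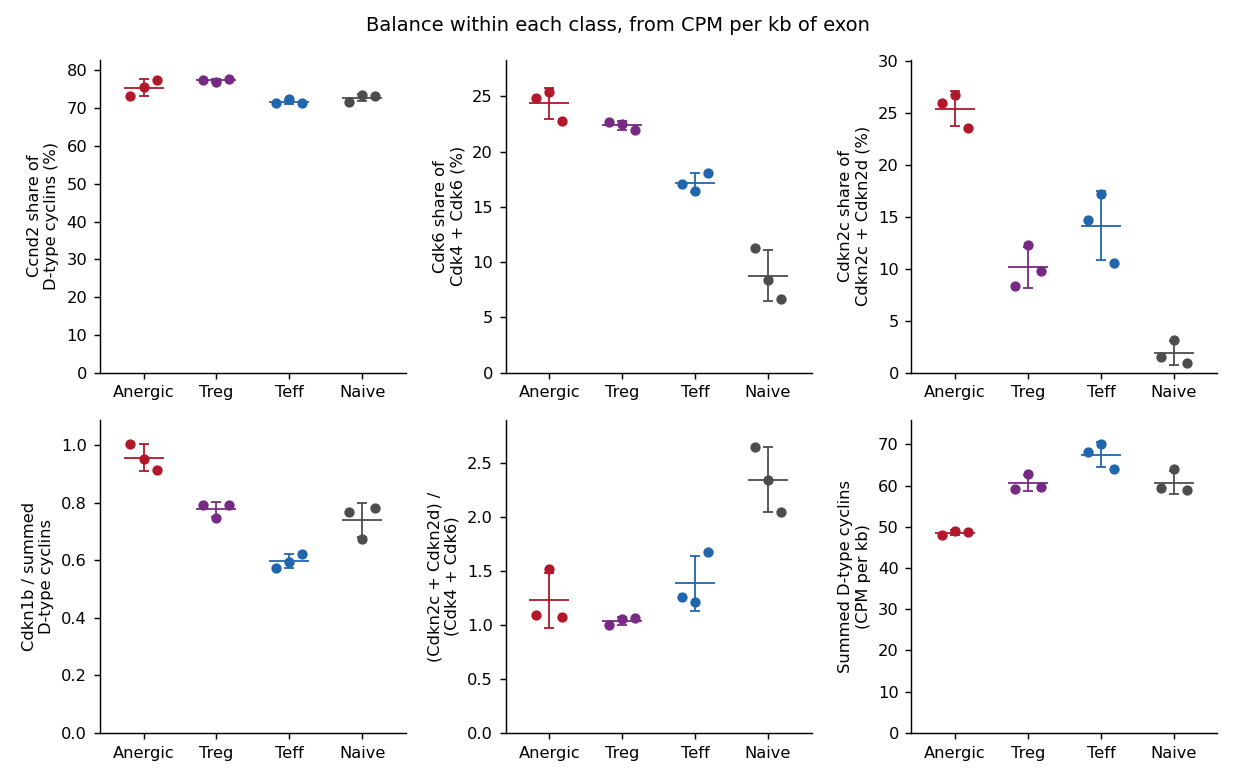
Balance within and between classes per library, from CPM per kb of exon, with the mean and SD of each subset; shares are in percent, ratios have no unit and the cyclin sum is in CPM per kb. Anergic libraries had the highest Cdk6 and Cdkn2c shares and the highest ratio of Cdkn1b to D-type cyclins (0.913 to 1.005), and Naive libraries the highest ratio of INK4 to kinase transcripts (2.05 to 2.65).

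In Anergic against Treg cells 5 of the 8 tested genes were called, 1 higher and 4 lower, where 31.0% of all tested genes were called (2096 higher and 2054 lower). In Anergic against Teff cells 6 were called, 3 higher and 3 lower (26.6% of all tested genes, 1864 higher and 1702 lower), and in Anergic against Naive cells 5, of which 2 were higher and 3 lower (46.2%, 3342 higher and 2851 lower). In Treg against Teff cells 3 were called, 2 higher and 1 lower (29.1%, 2006 higher and 1888 lower), in Treg against Naive cells 4, of which 2 were higher and 2 lower (32.8%, 2538 higher and 1858 lower), and in Teff against Naive cells 5, of which 3 were higher and 2 lower (34.9%, 2570 higher and 2100 lower). The groups of libraries did not overlap for 43.4% of all tested genes in Anergic against Treg, 37.8% in Anergic against Teff, 53.3% in Anergic against Naive, 41.6% in Treg against Teff, 44.9% in Treg against Naive and 45.2% in Teff against Naive. A test of any difference among the 4 subsets called 6 of the 8, against 56.1% of all tested genes, and missed Cdk4 (adjusted p = 0.0800, edgeR) and Cdkn1a (0.304). The median log2 fold change of the 8 ran between -0.28 for Anergic against Teff and 0.17 for Treg against Naive, while the median of all genes stayed between 0.00 and 0.01. Without single libraries the count of Anergic against Treg ran from 2 to 6 (2 without Treg replicate 1, 3 without Anergic replicate 2 or 3) and that of Teff against Naive from 3 to 6 (3 without Teff replicate 1 or Naive replicate 3). The comparisons share libraries and are not independent.

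**Figure D3:**
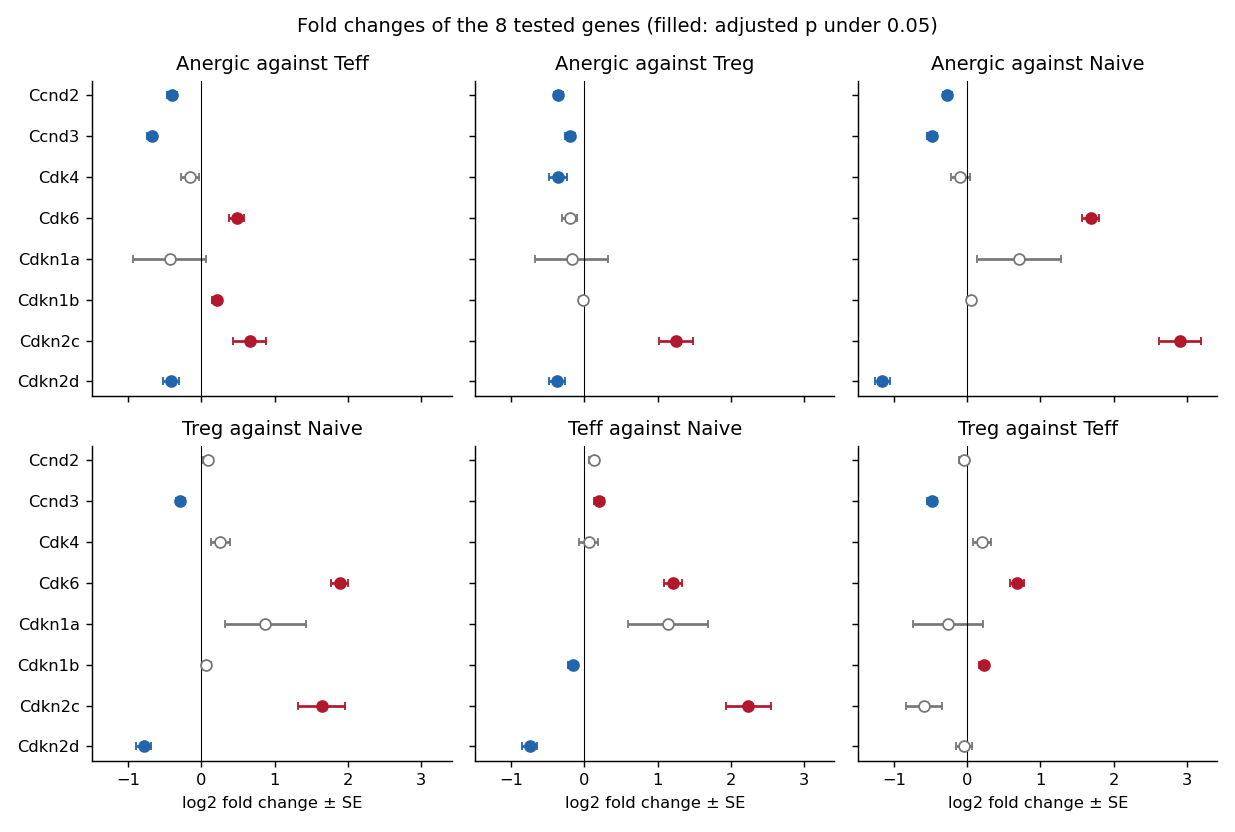
Log2 fold change with its SE (horizontal axes) of the 8 tested genes in the 6 comparisons. Filled points passed an adjusted p under 0.05 by edgeR, red higher and blue lower in the subset named first. Cdkn2c and Cdk6 lay farthest to the right against Naive cells, up to 2.90 and 1.89.

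Among the other genes of the G1/S step, the pocket protein genes Rb1 and Rbl2 and the E2F genes E2f2, E2f3, E2f4, E2f7 and E2f8 each passed in at least 1 comparison, and Rbl1, E2f1, E2f5 and E2f6 in none. Of 22 tested genes of this list, 9 rose and 1 fell in Anergic against Naive cells (median log2 0.18), 8 rose and 1 fell in Treg against Naive (0.30) and 7 rose and 1 fell in Teff against Naive cells (0.22). The shares called were 45.5%, 40.9% and 36.4%, near the 46.2%, 32.8% and 34.9% of all tested genes. Rbl2 (p130), the pocket protein typical of resting cells, averaged 188 ± 16.3 CPM in Anergic, 161 ± 2.14 in Treg, 268 ± 18.5 in Teff and 115 ± 10.7 in Naive (mean and SD, n = 3 each). Rbl2 was 1.64-fold higher in Anergic than in Naive cells (adjusted p = 4.17e-08, edgeR) and 2.33-fold higher in Teff than in Naive cells (4.68e-12). E2f2 averaged 15.9 ± 1.60 CPM in Anergic, 31.6 ± 3.00 in Treg, 30.9 ± 1.36 in Teff and 14.4 ± 1.38 in Naive, and was 1.99-fold lower in Anergic than in Treg cells (1.56e-07) and 1.94-fold lower than in Teff cells (3.89e-07). E2f3 was 4.67-fold higher in Anergic than in Naive cells (adjusted p = 1.33e-07, edgeR).

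Cdk2, the kinase that cyclin E drives and p27 blocks, averaged 14.03 ± 2.74 CPM in Anergic, 21.4 ± 3.25 in Treg, 19.4 ± 0.33 in Teff and 19.1 ± 1.59 in Naive (mean and SD, n = 3 each). It was 1.52-fold lower in Anergic than in Treg cells (adjusted p = 0.00163, edgeR) and 1.36-fold lower than in Naive cells (0.0145). Ccne1, a cyclin E gene, averaged 3.29, 3.83, 5.94 and 3.83 CPM in Anergic, Treg, Teff and Naive cells. Of the list, 3 genes rose and 5 fell in Anergic against Teff cells (median -0.05), 4 rose and 4 fell in Anergic against Treg (-0.02) and 2 rose and 4 fell in Treg against Teff cells (-0.10). These are shares of 36.4%, 36.4% and 27.3%, where 26.6%, 31.0% and 29.1% of all tested genes were called. The genes that rose in Anergic against Teff and in Anergic against Treg cells include Cdkn2b, whose limit is given next.

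Another INK4 gene, Cdkn2b (p15), a textbook target of TGF-beta signalling, was seen mainly in Anergic cells. It had 53 counts over the 3 Anergic libraries, against 1 over the Treg, 5 over the Teff and 2 over the Naive libraries. The ratio of scaled counts was 56.8 against Treg (exact 95% interval 9.77 to 2286), 10.6 against Teff (4.27 to 34.0) and 23.7 against Naive cells (6.24 to 200.5), where the intervals cover counting error only. It passed the filter on low counts through the Anergic libraries alone, and no test of it is given by itself. As 1 of the 22 tested genes of the list above, it is held in the counts and shares of that list. With a mean of 2.14 CPM it stayed below Cdkn2c and Cdkn2d in Anergic cells in counts, and Cdkn2a had at most 3 counts in any library.

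Most genes of S, G2 and M phase were higher in each antigen-experienced subset than in Naive cells, and most were lower in Anergic than in Teff cells. Of 23 tested genes, 18 rose and 1 fell in Anergic against Naive cells (median log2 1.58), 19 rose and 0 fell in Treg against Naive (1.51) and 20 rose and 0 fell in Teff against Naive cells (2.21). In Anergic against Teff cells 1 rose and 14 fell (median -0.50), in Anergic against Treg 4 rose and 2 fell (-0.13) and in Treg against Teff 1 rose and 11 fell (-0.47). The shares called against Naive cells were 82.6% for Anergic, 82.6% for Treg and 87.0% for Teff, above those of all tested genes. Against Teff cells they were 65.2% for Anergic and 52.2% for Treg, where 26.6% and 29.1% of all tested genes were called. In Anergic against Treg cells 26.1% were called, where 31.0% of all tested genes were. Mki67, the gene of the Ki-67 proliferation antigen, averaged 102 ± 25.8 CPM in Anergic, 67.3 ± 3.58 in Treg, 144 ± 15.4 in Teff and 3.44 ± 0.73 in Naive (mean and SD, n = 3 each). It was 1.51-fold higher in Anergic than in Treg cells (adjusted p = 3.04e-04, edgeR) and 2.14-fold lower in Treg than in Teff cells (4.91e-08). Mcm6, a subunit of the replication helicase, was 1.36-fold higher in Anergic than in Treg cells (8.11e-06), and Tk1, a thymidine kinase, was 2.73-fold lower (1.74e-04).

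The upstream regulators included several factors that act on the genes above. Myc, which drives Ccnd2 and Cdk4 in many cells, averaged 26.9 ± 5.35 CPM in Anergic, 96.8 ± 6.46 in Treg, 42.0 ± 1.18 in Teff and 80.0 ± 7.51 in Naive (mean and SD, n = 3 each). Myc was lower in Anergic than in Treg cells (log2 -1.86 ± 0.10 SE, adjusted p = 6.76e-13, edgeR) and higher in Treg than in Teff cells (1.20 ± 0.10, adjusted p = 5.26e-10). Foxo1, which raises Cdkn1b and keeps T cells quiescent, averaged 178 ± 10.2 CPM in Anergic, 338 ± 5.82 in Treg, 209 ± 5.00 in Teff and 385 ± 20.3 in Naive. Klf2, another quiescence factor, averaged 178 ± 2.79 CPM in Anergic, 332 ± 17.5 in Treg, 324 ± 23.4 in Teff and 420.3 ± 30.6 in Naive. Over the list of 15, 1 rose and 9 fell in Anergic against Treg cells (median log2 -0.32), 3 rose and 7 fell in Anergic against Teff (-0.06) and 3 rose and 6 fell in Anergic against Naive cells (-0.15). In Treg against Teff cells 7 rose and 2 fell (0.09), in Treg against Naive 5 rose and 4 fell (0.07) and in Teff against Naive cells 4 rose and 8 fell (-0.21). Between 9 and 12 of the 15 were called in each comparison, a larger share than the 26.6% to 46.2% of all tested genes.

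Other p53 targets, listed because p21 is one, were split in direction in Anergic against Naive cells and were called in 1 direction only, higher in Treg, where Treg cells were compared with Teff or Naive cells. In Anergic against Naive cells 5 of the 14 tested were higher and 4 lower (median log2 0.06), and in Anergic against Treg cells 2 were higher and 7 lower (-0.30). The share called was 64.3% in each, where 46.2% and 31.0% of all tested genes were called. Trp53inp1 averaged 231 ± 10.5 CPM in Anergic and 132 ± 4.71 CPM in Naive cells, while Sesn1, a stress-response gene, averaged 22.6 ± 2.33 CPM in Anergic and 51.7 ± 1.94 CPM in Naive cells (SD, n = 3 each). Both passed the test, in opposite directions. In Anergic against Teff cells 4 were higher and 3 lower, in Treg against Teff 6 higher and 0 lower, in Treg against Naive 6 higher and 0 lower and in Teff against Naive 2 higher and 2 lower. The share called was 42.9% in Treg against Teff and in Treg against Naive cells, where 29.1% and 32.8% of all tested genes were called, and ran from 28.6% to 64.3% over the 6 comparisons.

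Of the genes that mark cyclins and p27 for breakdown, 9 of 10 were tested and between 2 and 4 passed in any comparison. This is 22.2% to 44.4% of them, against 26.6% to 46.2% of all tested genes, and so near the background. Skp2, the p27 ligase gene, had 0 counts in all libraries. Kif11, of the S, G2 and M list, had at most 3 in any library. Whether such low counts reflect the cells or the counting was not tested. Fbxw7, whose product removes cyclin E, averaged 43.9 ± 3.18 CPM in Anergic, 41.5 ± 3.69 in Treg, 63.4 ± 2.42 in Teff and 46.6 ± 5.11 in Naive (mean and SD, n = 3 each). It was 1.44-fold lower in Anergic than in Teff cells (adjusted p = 4.84e-05, edgeR) and 1.36-fold higher in Teff than in Naive cells (3.14e-04). Cul1, the scaffold of the same ligases, was 1.26-fold higher in Anergic than in Teff cells (0.00489), 1.29-fold higher than in Treg (0.00215) and 1.33-fold higher than in Naive cells (4.86e-04).

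**Figure D4:**
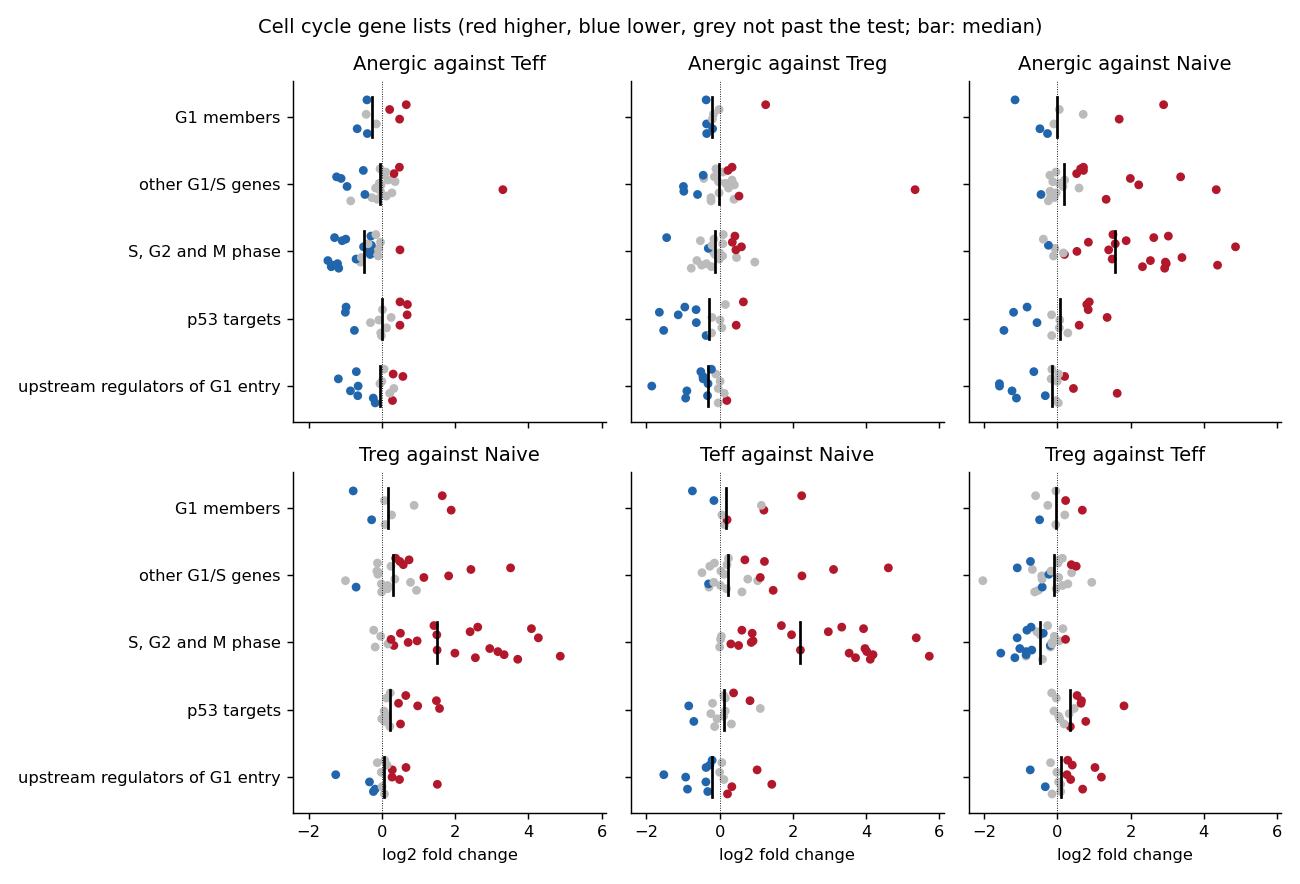
Log2 fold changes (horizontal axes) of the tested genes of 5 lists in the 6 comparisons, 1 point a gene; red and blue points passed the test higher or lower in the subset named first, and bars mark medians. The S, G2 and M genes lay to the right against Naive cells, with medians of 1.51 to 2.21, whereas the medians of the G1 genes described here lay between -0.28 and 0.17.

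The 3 genes with the widest range over subsets were Cdkn2c, Cdk6 and Cdkn1a, and the genes most like each in log2 CPM were sought over 12 libraries among 7250 genes. Nearest to Cdkn2c were Chst2 (Pearson r = 0.970), Casp4 (0.966) and Dnajc1 (0.965). Nearest to Cdk6 were Ikzf2 (r = 0.988), the gene of the transcription factor HELIOS, Myo1e (0.986) and Mxd4 (0.983). Ikzf2 averaged 376 ± 72.4 CPM in Anergic, 532 ± 8.10 in Treg, 84.0 ± 7.39 in Teff and 4.16 ± 1.27 in Naive (mean and SD, n = 3 each). Nearest to Cdkn1a were Ptcd1 (r = 0.874), Zbtb41 (0.845) and Ftx (0.843), and with 1 to 20 counts a library its own values carry much counting error. The libraries fall into 4 subsets, so these correlations describe likeness of pattern, with no p.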

How the data were processed

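The deposited values were raw read counts per gene, 1 column per library, in 1 table. Per the series design text, the authors prepared stranded total RNA libraries and processed the reads with a pipeline that includes Trimmomatic, edgeR, HISAT2 and featureCounts. GRCm38 is the build in the submitters' processing notes. No annotation or strand setting for featureCounts is given in the sources used here.

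The test was that of edgeR 4.0.16 under R 4.3.3 (glmQLFit and glmQLFTest, TMM scaling, filterByExpr, 4 subset means over all 12 libraries, two-sided, Benjamini-Hochberg over 13393 genes). The filter kept 8 of the 9 genes. The standard error is the log2 fold change divided by the square root of F. Levels per kilobase use the exon union of a GENCODE annotation of GRCm38. Replicates differed by more than sampling noise, so none was counted as a repeat deposit. The edgeR test was checked on simulated data. Alternatives were DESeq2 1.42.0, voom of limma 3.58.1, other scalings and filters, a fit of 2 subsets, a block and left-out libraries.

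The genes and lists were chosen with earlier results of these data known. From each list, genes were named among the 2 higher and 2 lower ones with the smallest adjusted p per comparison. Ccne1, Cdkn2a, Skp2, Kif11, Klrk1 and the further pocket protein and E2F genes were added after their values were seen. So were the B cell genes and the values of named genes in further subsets. Likeness used tested genes averaging 10 CPM or more, without predicted, RIKEN, ribosomal, pseudogene or receptor segment names, and 3 were named for each.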

Additional observations from a re-analysis of the deposited data

How the results depend on the processing

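Of 713 fold changes of the 8 tested genes recomputed under the other settings, 673 kept their direction and side of the threshold, 31 lost the call and 9 gained it. The counts of genes called moved by more than 1.5 times only when single libraries were left out: Anergic against Treg ran from 2 to 6 and Teff against Naive from 3 to 6, while Anergic against Teff ran from 4 to 6, Anergic against Naive stayed at 5, Treg against Naive ran from 4 to 5, Treg against Teff stayed at 3, and the test of any difference ran from 5 to 7. Scaling by total counts shifted the median of all genes by -0.13 (log2) for Anergic against Treg and -0.10 for Anergic against Teff, and turned the split of higher to lower calls to 1324 and 3027 (2096 and 2054 with TMM), to 1218 and 2276 (1864 and 1702), and for Treg against Naive to 2925 and 1126 (2538 and 1858). Under it Ccnd3 lost its call for Treg against Naive (adjusted p = 0.0997, edgeR), Cdk4 gained one there (0.0402) and Cdk6 gained one for Anergic against Treg (0.0255); the cause was not tested. The direction of each called gene was kept under each scaling. Libraries that shared a replicate number correlated in their deviations from the subset means at -0.05 to 0.18 over 18 pairs (median 0.065, against -0.044 for other numbers). With 17 of the 18 above 0 but 4 above 0.1, the numbers were not taken to pair the libraries. That 10 of 12 libraries correlated best with their own number is a hint of pairing. The column names also list the subsets in sets by replicate number, but no label ties a number to an animal or batch. With the replicate block, 6 genes were called for Teff against Naive (Ccnd2 added, adjusted p = 0.0464, edgeR), 4 for Treg against Teff (Cdkn2c added, 0.0349), 6 for Anergic against Teff, 5 for Anergic against Treg, 5 for Anergic against Naive, 4 for Treg against Naive and 6 in the test of any difference. Counts of 1 to 20 a library limit Ccnd1 and Cdkn1a.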
